A study of Rattus norvegicus with 71 samples.

Results

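Ms4a1, Cd79b, Blnk and Cd37 are 4 genes whose products are carried by B cells, the antibody-forming lymphocytes. Their probes were taken from the platform annotation by gene symbol, and they are 4 of the 13337 genes named on the array. Each gene was read by 1 probe, all 4 probes passed the detection filter and were tested, and the probes' own sequences were not analysed here. The study measured RNA of whole lung from Brown Norway, Fisher and Lewis rats, which are 3 inbred strains, at postnatal days 1, 7 and 14 (PN1, PN7 and PN14). The young had been exposed before birth either to ovalbumin, an egg white protein used as a model allergen, or to saline. Strain, age and exposure together gave 18 groups of 4 arrays, apart from Fisher PN7 saline with 3, and 71 arrays in all. The labels name no animal, litter or sex, so p-values measure only the spread between arrays of a group, which may be technical.

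B cells recognise antigen with a surface immunoglobulin, which signals through the chains CD79A and CD79B. Kinases of the Src and Tec families and Syk then act with the adaptor BLNK to switch on phospholipase C gamma, while CD20 (the product of Ms4a1) and CD37 are membrane-spanning proteins of the same cells. In rodents few lymphocytes lie in the lung at birth, and lymphoid tissue beside the airways forms afterwards.

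The annotated promoters of Blnk and Cd37 are shown, since of the 4 genes only these had a window available. The results on strains turn on Blnk, and Cd37 rose less with age than Ms4a1 and Cd79b. Of the 4 genes, Blnk and Cd37 matched RefSeq's promoter table on the rat build GRCr8, and Ms4a1 and Cd79b did not; each window has 300 bases around the gene's start. The Blnk window lies at chr1:249770484-249770783 and the Cd37 window at chr1:104860735-104861034, both on the minus strand. Capitals mark the only matches to the B cell motifs searched.
Blnk: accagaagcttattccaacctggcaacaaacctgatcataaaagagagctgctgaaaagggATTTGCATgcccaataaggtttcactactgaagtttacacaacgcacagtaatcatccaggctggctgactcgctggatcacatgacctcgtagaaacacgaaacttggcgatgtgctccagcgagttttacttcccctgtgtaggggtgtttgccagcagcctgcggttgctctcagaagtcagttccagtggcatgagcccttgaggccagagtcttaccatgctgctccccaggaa
Cd37: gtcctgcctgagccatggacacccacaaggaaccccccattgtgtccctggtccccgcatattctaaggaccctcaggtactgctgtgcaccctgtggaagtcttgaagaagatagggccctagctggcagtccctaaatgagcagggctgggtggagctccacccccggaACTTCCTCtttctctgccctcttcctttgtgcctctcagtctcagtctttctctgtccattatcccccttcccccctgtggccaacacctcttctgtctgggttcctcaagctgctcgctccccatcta
The Blnk window holds the octamer ATGCAAAT, the motif of the Oct factors, read on the opposite strand, with the match's first base at position -189 from the gene's start. The same 8 letters occur in 1.78% of the 33469 rat promoter windows of that table. The Cd37 window holds a purine-rich box GAGGAAGT, of the kind bound by PU.1 (product of Spi1), also on the opposite strand, at position -79, and 2.42% of the windows hold it. The palindromic motif of EBF1, in 0.834% of windows, and the E-box CAGGTG, in 18.8%, were in neither. Both strands were searched, the motifs do not overlap one another in these windows, and they were chosen with the sequences in view. A match describes letters in this window and not a site in use.

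Levels are given as background-corrected, quantile-normalised log2 signal. Between 10128 and 12437 probes per array were detected (detection p under 0.01 against the array's own negative control beads), and 14019 of 22523 probes entered the tests. The lung label was borne out by 8 tested genes of lung epithelium and endothelium, all detected on all 71 arrays. On 1 array, Lewis PN1 ovalbumin replicate a, the mean level of 11 T cell genes was 10.85 and that of 3 thymus genes 10.20. The other 3 arrays of its group stood at 5.64 to 6.16 and 6.69 to 6.91. To a lesser degree Fisher PN14 ovalbumin replicate a stood apart, with T cell genes at 8.26 and thymus genes at 8.36, against 6.83 to 7.39 and 6.80 to 7.28 on the other 3 arrays. No call for the 4 genes changed when that Fisher array was left out. The 6 array slides were partly aligned with age and exposure, and values within a slide are given for some comparisons whose groups share one. Slide 6 held PN14 ovalbumin arrays only, and Fisher PN14 ovalbumin replicate d, on slide 2, was the only such array elsewhere. With slide as a fixed term in the model, age and exposure differences of the PN14 ovalbumin groups therefore rest on this 1 array. In whole tissue, fewer cells of a type and less RNA per cell cannot be told apart.

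Ms4a1, which encodes CD20, the target of antibodies used to deplete B cells, was detected on 40 of 71 arrays. Ms4a1 in Brown Norway lungs after ovalbumin was at 6.76, 5.02, 5.74 and 5.80 at PN1, 6.74, 6.28, 6.22 and 7.47 at PN7 and 8.45, 8.04, 8.25 and 8.30 at PN14. After saline, Brown Norway lungs had Ms4a1 at 4.73, 4.71, 4.67 and 4.63 at PN1, 6.57, 5.92, 5.71 and 4.85 at PN7 and 8.92, 9.0, 7.88 and 8.15 at PN14. Every PN14 array of this strain stood above all its PN1 and PN7 arrays, and at PN1 the gene was detected on 3 of 4 ovalbumin arrays, against 0 of 4 saline arrays. Ms4a1 in Fisher lungs after ovalbumin was at 5.39, 4.78, 4.69 and 4.87 at PN1, 6.14, 5.55, 6.06 and 4.71 at PN7 and 7.34, 6.67, 7.06 and 6.17 at PN14. After saline, Fisher lungs had Ms4a1 at 4.61, 4.67, 5.15 and 4.59 at PN1, 5.67, 5.56 and 4.94 at PN7 and 6.12, 6.65, 5.97 and 8.07 at PN14. No Fisher array detected Ms4a1 at PN1 and all did at PN14, where 1 saline array at 8.07 stood apart from 3 between 5.97 and 6.65. Ms4a1 in Lewis lungs after ovalbumin was at 5.33, 4.78, 4.89 and 4.78 at PN1, 5.40, 6.79, 5.33 and 6.11 at PN7 and 6.94, 7.11, 6.79 and 6.50 at PN14. After saline, Lewis lungs had Ms4a1 at 4.83, 4.92, 4.53 and 4.51 at PN1, 6.81, 6.33, 7.49 and 6.03 at PN7 and 6.36, 6.57, 6.41 and 6.31 at PN14. The Lewis PN14 arrays of both exposures lay above all Lewis PN1 arrays, while the PN7 saline arrays spread around the PN14 ones on both sides.

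Cd79b, which encodes the signalling partner of surface immunoglobulin, was detected on 68 of 71 arrays. Cd79b in Brown Norway lungs after ovalbumin was at 6.67, 6.79, 6.85 and 6.92 at PN1, 7.71, 7.27, 7.29 and 7.07 at PN7 and 8.76, 8.24, 8.59 and 8.93 at PN14. After saline, Brown Norway lungs had Cd79b at 6.0, 6.36, 5.97 and 5.90 at PN1, 7.31, 6.68, 7.59 and 6.85 at PN7 and 8.97, 8.81, 8.42 and 8.59 at PN14. The PN14 arrays again lay above every earlier array of the strain, and at PN1 all ovalbumin arrays lay above all saline arrays. Cd79b in Fisher lungs after ovalbumin was at 6.16, 6.06, 6.27 and 5.82 at PN1, 6.01, 6.31, 6.14 and 5.31 at PN7 and 7.52, 7.08, 7.65 and 6.68 at PN14. After saline, Fisher lungs had Cd79b at 5.66, 5.70, 5.77 and 5.93 at PN1, 5.76, 6.07 and 5.67 at PN7 and 6.80, 6.66, 6.15 and 7.61 at PN14. PN1 and PN7 overlapped in Fisher lungs under either exposure, and the PN14 arrays lay above both. Cd79b in Lewis lungs after ovalbumin was at 6.43, 6.55, 6.10 and 6.30 at PN1, 6.73, 6.66, 6.39 and 6.68 at PN7 and 8.03, 7.66, 7.11 and 7.26 at PN14. After saline, Lewis lungs had Cd79b at 5.51, 5.90, 5.85 and 5.96 at PN1, 6.46, 7.29, 6.66 and 7.10 at PN7 and 7.36, 7.37, 7.0 and 7.09 at PN14. As in Brown Norway lungs, the Lewis ovalbumin arrays at PN1 lay above the saline ones, and the PN7 and PN14 saline groups overlapped.

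Blnk, which encodes the adaptor that brings Btk and phospholipase C gamma to the receptor, was detected on 24 of 24 Brown Norway arrays, 2 of 23 Fisher arrays and 2 of 24 Lewis arrays. Blnk in Brown Norway lungs after ovalbumin was at 7.19, 7.14, 6.57 and 7.33 at PN1, 7.71, 7.50, 7.14 and 7.36 at PN7 and 7.95, 7.85, 7.89 and 7.79 at PN14. After saline, Brown Norway lungs had Blnk at 6.52, 7.03, 6.20 and 6.43 at PN1, 6.93, 6.69, 6.79 and 6.93 at PN7 and 8.20, 8.10, 7.49 and 7.76 at PN14. The strain's PN14 arrays lay above its PN1 arrays under both exposures. Blnk in Fisher lungs after ovalbumin was at 5.25, 5.01, 4.55 and 5.43 at PN1, 5.59, 5.13, 5.45 and 5.0 at PN7 and 5.49, 5.42, 5.15 and 5.33 at PN14. After saline, Fisher lungs had Blnk at 4.93, 5.03, 5.37 and 4.96 at PN1, 5.41, 5.19 and 5.43 at PN7 and 5.0, 5.43, 5.53 and 5.82 at PN14. Both Fisher arrays with a detected signal were PN14 saline ones. Blnk in Lewis lungs after ovalbumin was at 6.32, 4.77, 4.75 and 5.0 at PN1, 4.99, 5.15, 4.97 and 4.79 at PN7 and 4.92, 5.56, 4.98 and 5.71 at PN14. After saline, Lewis lungs had Blnk at 4.70, 4.83, 5.02 and 4.76 at PN1, 5.65, 5.41, 5.22 and 4.80 at PN7 and 4.92, 5.51, 5.48 and 5.26 at PN14. The highest Lewis value, 6.32, came from the PN1 ovalbumin array whose T cell and thymus genes stood apart, and it was the only array of Fisher or Lewis rats above the lowest Brown Norway array, at 6.20.

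Cd37, which encodes a tetraspanin abundant on mature B cells and present on other leukocytes, was detected on all 71 arrays and had the narrowest range of levels over arrays, 7.33 to 9.31. Cd37 in Brown Norway lungs after ovalbumin was at 8.07, 8.12, 7.50 and 7.96 at PN1, 8.27, 7.86, 7.68 and 8.12 at PN7 and 9.27, 9.01, 9.23 and 9.12 at PN14. After saline, Brown Norway lungs had Cd37 at 7.70, 7.49, 7.38 and 7.45 at PN1, 7.83, 7.57, 7.62 and 7.87 at PN7 and 9.31, 9.26, 9.01 and 8.64 at PN14. PN1 and PN7 overlapped in this strain, and the PN14 arrays lay above both. Cd37 in Fisher lungs after ovalbumin was at 7.82, 7.59, 7.82 and 7.67 at PN1, 8.33, 8.06, 8.64 and 7.79 at PN7 and 8.37, 8.42, 8.42 and 8.54 at PN14. After saline, Fisher lungs had Cd37 at 7.42, 7.43, 7.33 and 7.55 at PN1, 8.08, 8.15 and 8.36 at PN7 and 8.03, 8.33, 8.12 and 8.62 at PN14. The Fisher saline PN7 arrays already lay above the PN1 ones and overlapped with PN14. Cd37 in Lewis lungs after ovalbumin was at 8.58, 7.65, 7.88 and 8.04 at PN1, 7.69, 8.02, 7.34 and 7.48 at PN7 and 8.83, 8.29, 8.15 and 8.59 at PN14. After saline, Lewis lungs had Cd37 at 7.76, 7.67, 7.83 and 8.13 at PN1, 7.69, 7.59, 8.38 and 8.11 at PN7 and 8.09, 8.09, 8.41 and 8.05 at PN14. Lewis groups of neighbouring ages overlapped after saline.

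**Figure D1:**
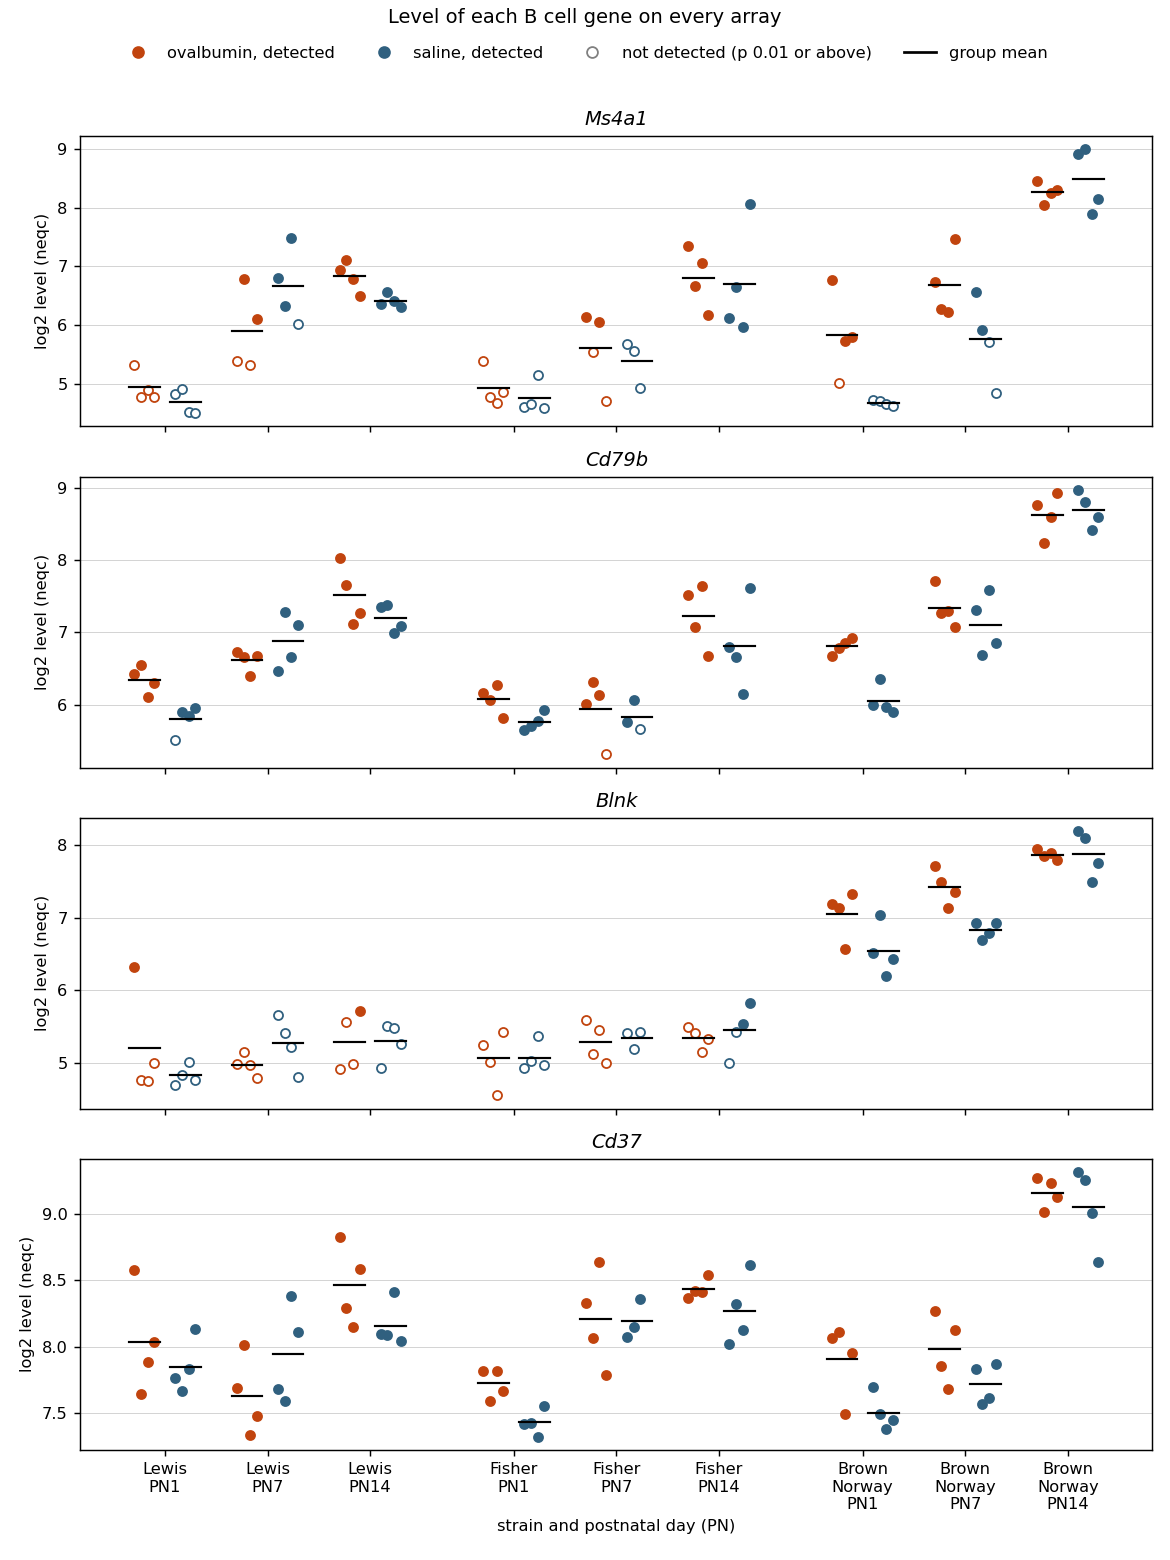
Log2 level of Ms4a1, Cd79b, Blnk and Cd37 on each of the 71 arrays, by strain and age, with ovalbumin arrays (red) left of saline arrays (blue). Filled points were detected, open points were not and bars are group means; the Brown Norway PN14 groups are the highest for each gene, and Blnk stands at 6.20 to 8.20 in Brown Norway against at most 6.32 in the other strains.

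The plot of levels by array shows the Brown Norway PN14 groups on top for all 4 genes. Ms4a1 averaged 8.26 ± 0.17 there after ovalbumin and 8.49 ± 0.55 after saline, and Cd79b averaged 8.63 ± 0.29 and 8.70 ± 0.24 (SD, n = 4 each). Blnk averaged 7.87 ± 0.07 after ovalbumin and 7.89 ± 0.32 after saline, and Cd37 averaged 9.16 ± 0.12 and 9.05 ± 0.31. The lowest group mean was that of Brown Norway PN1 saline for Ms4a1 (4.69 ± 0.05), Lewis PN1 saline for Blnk (4.83 ± 0.14), and Fisher PN1 saline for Cd37 (7.43 ± 0.09) and Cd79b. With the 18 groups ordered by mean, most neighbours overlapped: 16 of 17 neighbouring pairs for Ms4a1 and for Cd79b, 15 of 17 for Blnk and 17 of 17 for Cd37. The order broke for Ms4a1 and Cd79b between Brown Norway PN14 ovalbumin and the next group, Lewis PN14 ovalbumin, with means 1.43 and 1.11 apart. For Blnk it broke between Brown Norway PN14 ovalbumin and Brown Norway PN7 ovalbumin (0.45 apart), and between Brown Norway PN1 saline, the lowest group of that strain, and Fisher PN14 saline (1.10 apart).

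All 4 genes were higher at PN14 than at PN1 when averaged over strains, after ovalbumin and after saline. After saline, the limma log2 difference PN14 minus PN1 was 2.49 ± 0.20 (SE) for Ms4a1 (adjusted p = 5.70e-16), 1.69 ± 0.13 for Cd79b (adjusted p = 2.20e-17), 0.73 ± 0.13 for Blnk (adjusted p = 4.31e-06) and 0.90 ± 0.10 for Cd37 (adjusted p = 5.55e-11). Of all probes tested, 35.2% passed in this comparison, 17.2% upward and 18% downward. Ms4a1 was not well above background on any PN1 saline array, so its PN14 level was at least 2.91-fold higher, against each array's lowest detected signal. Cd79b was 3.23-fold and Cd37 1.87-fold higher. Blnk was not detected in Lewis and Fisher lungs at PN1 or in Lewis lungs at PN14 after saline, so its averaged log2 differences rest partly on signals at background and are given no fold. After ovalbumin, limma gave 2.06 ± 0.20 for Ms4a1 (adjusted p = 6.78e-13), 1.38 ± 0.13 for Cd79b (adjusted p = 7.15e-14), 0.40 ± 0.13 for Blnk (adjusted p = 0.0125) and 0.80 ± 0.10 for Cd37 (adjusted p = 2.47e-09), where 32.4% of probes passed, 15.3% upward. With slide as a fixed term, the saline differences all remained called, whereas after ovalbumin Ms4a1 (1.44, adjusted p = 0.0627), Cd79b (0.71, adjusted p = 0.140) and Blnk (0.52, adjusted p = 0.323) no longer passed. On the values the authors deposited, which have no background correction, the saline differences were smaller, at 1.25, 0.93, 0.39 and 0.66 in the order Ms4a1, Cd79b, Blnk and Cd37, and all 4 were called.

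The rise was taken apart into its steps. From PN1 to PN7 after ovalbumin, Ms4a1 alone was called (0.83 ± 0.20, adjusted p = 0.00103, 31% of probes called). After saline, all 4 genes were higher at PN7 than at PN1 by limma: Ms4a1 by 1.23 ± 0.21, Cd79b by 0.73 ± 0.13, Blnk by 0.33 ± 0.13 (adjusted p = 0.0318) and Cd37 by 0.36 ± 0.10, where 47% of probes were called. The Blnk step missed the threshold when any 1 of 4 arrays was left out, namely Brown Norway PN1 saline c, Lewis PN7 saline a and Fisher PN7 saline a or c (adjusted p up to 0.0676), with slide as a fixed term (adjusted p = 0.298) or a random block (0.0671), and without the detection filter (0.0512). From PN7 to PN14 after ovalbumin, Ms4a1 gained 1.23, Cd79b 1.16 and Cd37 0.75, and Blnk was at 0.27 (adjusted p = 0.0882), with 36.5% of probes called. That Blnk step passed on the authors' deposited values (0.15, adjusted p = 0.0462), without the 4 doubted arrays (adjusted p = 0.0395) and in a fit of only the groups compared (adjusted p = 0.0317). After saline, the same step was called for all 4, at 1.26 ± 0.21 for Ms4a1, 0.96 ± 0.13 for Cd79b, 0.39 ± 0.13 for Blnk and 0.54 ± 0.10 for Cd37, with 45.0% of probes called. With slide as a fixed term, the later step lost its call after ovalbumin for Ms4a1 (0.60, adjusted p = 0.455) and Cd79b (0.47, adjusted p = 0.329), and after saline for Blnk (adjusted p = 0.270) and Cd37 (0.38, adjusted p = 0.171).

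The size and timing of the rise differed between strains after saline. Brown Norway lungs had the highest PN14 minus PN1 differences: Ms4a1 was at least 6.58-fold higher (log2 difference 3.80 ± 0.35, limma adjusted p = 1.69e-13), Cd79b 6.23-fold, Cd37 2.93-fold and Blnk 2.53-fold, and PN14 and PN1 arrays did not overlap for any of the 4. In that comparison 31.2% of probes were called, and 37.8% had groups without overlap. In Fisher lungs Ms4a1 (at least 2.10-fold), Cd79b (log2 difference 1.04 ± 0.22) and Cd37 (0.84 ± 0.17) were called, and Blnk was not (0.37, adjusted p = 0.279), with 15.1% of probes called. The Fisher Cd37 call was lost with slide as a fixed term (0.87, adjusted p = 0.0631). In Lewis lungs Ms4a1 (at least 1.79-fold) and Cd79b (1.40 ± 0.22) were called, and Blnk (0.47, adjusted p = 0.145) and Cd37 (0.31, 95% interval -0.04 to 0.66) were not, with 17.5% of probes called. Within the 1 slide that held 2 Lewis PN14 and 2 Lewis PN1 saline arrays, the differences were 1.95, 1.46, 0.33 and 0.11 in the order Ms4a1, Cd79b, Blnk and Cd37. No slide held both ages of Brown Norway or Fisher saline lungs. The interaction of age and strain after saline, an F test in limma over all ages, was called for Ms4a1 (F = 11, adjusted p = 3.12e-05), Cd79b (F = 9.89, adjusted p = 7.62e-05), Blnk (F = 4.19, adjusted p = 0.0179) and Cd37 (F = 10.4, adjusted p = 5.12e-05), as for 37.0% of probes. The Blnk interaction lost its call without Brown Norway PN14 saline replicate a (F = 2.95, adjusted p = 0.0701) or b (F = 3.13, adjusted p = 0.0575).

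**Figure D2:**
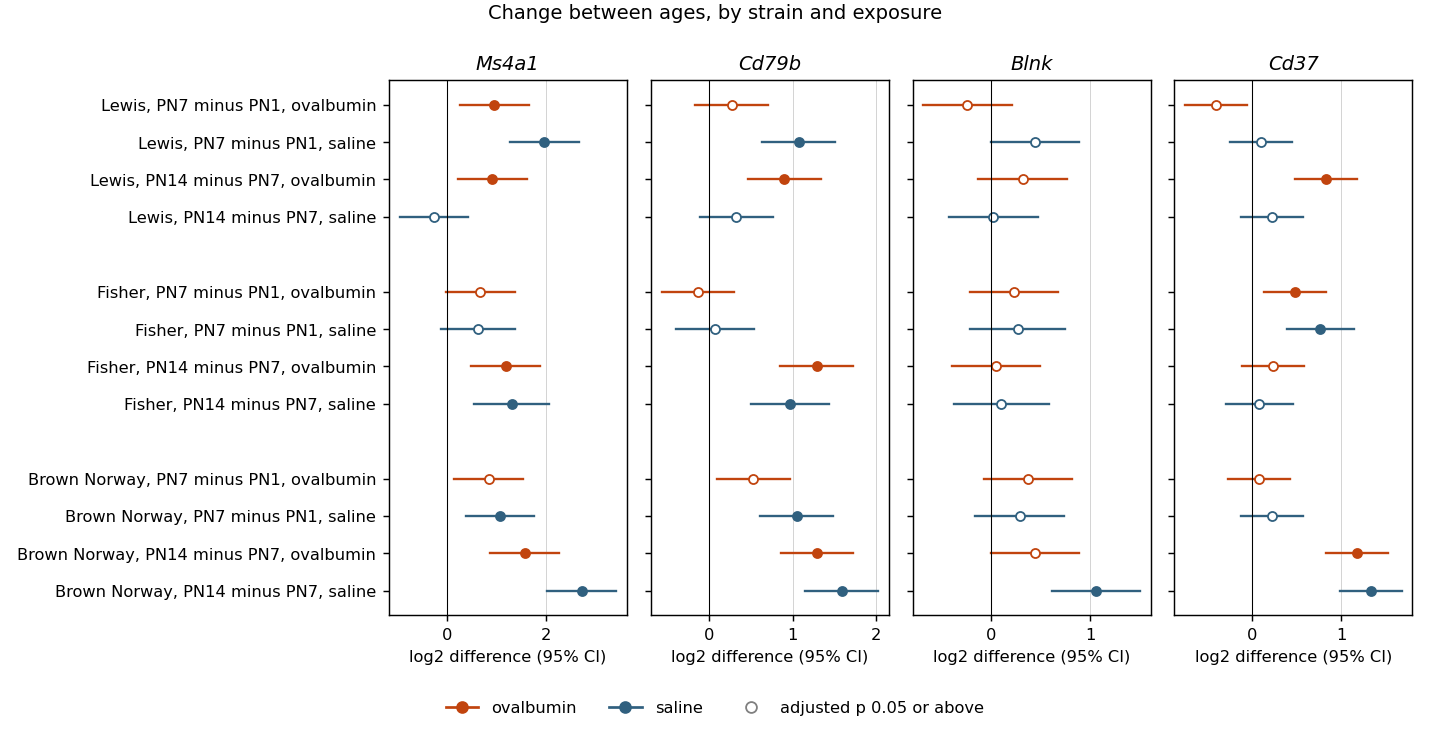
Log2 differences PN7 minus PN1 and PN14 minus PN7 for the 4 genes in each strain, with ovalbumin above saline and 95% intervals; filled points were called and open points had an adjusted p of 0.05 or above. After saline, Lewis lungs show the Ms4a1 gain in the first step (1.97) and Brown Norway lungs show the larger gain in the second (2.73).

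The plot of age steps shows when each strain's saline lungs gained signal. In Lewis lungs Ms4a1 was at least 2.13-fold higher at PN7 than at PN1 (log2 difference 1.97) and Cd79b was 1.07 higher, while none of the 4 was called from PN7 to PN14 (Ms4a1 -0.25, 95% interval -0.95 to 0.44). Of all probes, 28.9% were called in the first of these steps and 11% in the second. In Fisher lungs Cd37 alone was called in the first step (0.76, with 27.9% of probes called), and Ms4a1 (1.31, at least 1.90-fold) and Cd79b (0.97) in the second, with 36.0% of probes called. The Fisher Ms4a1 step was lost without Fisher PN7 saline replicate c (1.08, adjusted p = 0.0541) or Fisher PN14 saline replicate d (0.85, adjusted p = 0.0643). Brown Norway lungs had Ms4a1 (1.08, adjusted p = 0.0101) and Cd79b (1.05) called in the first step, with 39% of probes, and all 4 in the second: Ms4a1 2.73 ± 0.35, Cd79b 1.59, Cd37 1.33 and Blnk 1.05, with 20.0% of probes. No Brown Norway PN1 saline array detected Ms4a1, and its bound for the first step does not exceed 1-fold. That step was lost without Brown Norway PN7 saline replicate a (0.81, adjusted p = 0.0751) and with slide as a fixed term (1.03, adjusted p = 0.122).

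After ovalbumin the strains' age courses differed by F test for Cd37 alone in the main fit (F = 6.58, adjusted p = 0.00152, with 34.3% of probes called). There the adjusted p was 0.736 for Ms4a1, 0.169 for Cd79b and 0.217 for Blnk. The same F test passed for Cd79b on the authors' deposited values (F = 4.34, adjusted p = 0.0158) and for Blnk with offset 50 (F = 3.66, adjusted p = 0.0324). Among Brown Norway lungs, PN14 exceeded PN1 by 2.43 for Ms4a1, 1.82 for Cd79b, 1.25 for Cd37 and 0.82 for Blnk (adjusted p = 0.00744), with 13.3% of probes called; Blnk was at 0.65 (adjusted p = 0.0630) without Brown Norway PN1 ovalbumin replicate c. In Fisher lungs, Ms4a1 was at least 2.32-fold higher, Cd79b 1.15 higher and Cd37 0.71 higher on the log2 scale, with 17.3% of probes called and Blnk at 0.29 (adjusted p = 0.431). In Lewis lungs, Ms4a1 was at least 2.25-fold higher and Cd79b 1.17 higher, with 14.2% of probes called, and Blnk was at 0.08 and Cd37 at 0.42 (adjusted p = 0.0983). Without the Lewis PN1 ovalbumin array with high T cell and thymus genes, Cd37 passed (0.61, adjusted p = 0.0156) and Blnk was at 0.45 (adjusted p = 0.163). Within 1 slide, 1 Fisher PN14 array exceeded 2 Fisher PN1 arrays by 1.39 for Ms4a1, 0.63 for Cd79b, 0.35 for Blnk and 0.80 for Cd37. By step, no gene was called from PN1 to PN7 in Brown Norway lungs (4.23% of probes called), Cd37 in Fisher lungs (0.48, 31.1%) and Ms4a1 in Lewis lungs (0.96, 24.4%). From PN7 to PN14, Ms4a1 and Cd79b were called in Brown Norway (1.58 and 1.29, 9.93% of probes), Fisher (1.19 and 1.29, 30.7%) and Lewis lungs (0.92 and 0.90, 31.7%), and Cd37 in Brown Norway (1.18) and Lewis lungs (0.83). With slide as a fixed term, the PN14 minus PN1 calls of Ms4a1 and Cd79b were lost in all 3 strains (adjusted p from 0.0632 to 0.498), as was that of Blnk in Brown Norway lungs (0.93, adjusted p = 0.137). The same term lost all 6 calls of Ms4a1 and Cd79b from PN7 to PN14, with log2 differences from 0.22 to 0.90 and adjusted p from 0.186 to 0.841. It also lost the first steps of Ms4a1 in Lewis lungs (adjusted p = 0.0620) and of Cd37 in Fisher lungs (adjusted p = 0.0792). The first Lewis Ms4a1 step lost its call without Lewis PN1 ovalbumin b, c or d or Lewis PN7 ovalbumin b or d (adjusted p up to 0.191), and the later one without Lewis PN7 ovalbumin a or c or Lewis PN14 ovalbumin a, b or c (up to 0.146). Neither passed on the deposited values (adjusted p = 0.0934 and 0.0778) or without the detection filter (0.0527 and 0.0532). The first was also lost with offset 50 (0.0873) and the later one with slide as a random block (0.0799). The Fisher Cd37 step lost its call without Fisher PN1 ovalbumin b or d or Fisher PN7 ovalbumin a or c (up to 0.176), and the later Fisher Ms4a1 step without Fisher PN7 ovalbumin d (0.89, adjusted p = 0.0632).

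Brown Norway lungs differed from the other strains mainly in the signal of the single Blnk probe at every age and in all 4 genes at PN14. Whether the strains differ in sequence under that probe was not tested. After saline at PN14, Brown Norway exceeded Lewis by 2.08 ± 0.35 for Ms4a1 (limma adjusted p = 7.72e-06), 1.49 ± 0.22 for Cd79b (adjusted p = 3.62e-07), 2.59 ± 0.22 for Blnk (adjusted p = 1.16e-14, at least 4.86-fold) and 0.89 ± 0.17 for Cd37 (adjusted p = 0.000148). Only 5.66% of probes were called there, and the arrays of the strains did not overlap for any of the 4 genes, as for 16.3% of probes. Against Fisher at PN14, the saline differences were 1.79 for Ms4a1 (adjusted p = 0.000135), 1.89 for Cd79b, 2.44 for Blnk and 0.78 for Cd37 (adjusted p = 0.00116), where 6.41% of probes were called. There the Ms4a1 groups overlapped and those of the other 3 genes did not, as for 15.5% of probes. After ovalbumin at PN14, Brown Norway exceeded Lewis by 1.43 for Ms4a1 (adjusted p = 0.00369), 1.11 for Cd79b, 2.58 for Blnk and 0.70 for Cd37 (adjusted p = 0.00517), with 5.91% of probes called. Against Fisher, it did so by 1.45 for Ms4a1 (adjusted p = 0.00281), 1.40 for Cd79b, 2.53 for Blnk (at least 4.70-fold) and 0.72 for Cd37 (adjusted p = 0.00326), with 6.36% called. Both ovalbumin comparisons at PN14 had no overlap for any of the 4 genes, as for 15.6% of probes against Lewis and 15.8% against Fisher. Within a slide, 4 Brown Norway saline arrays exceeded 2 Lewis ones by 2.13, 1.65, 2.51 and 0.83, and 4 Brown Norway ovalbumin arrays exceeded 3 Fisher ones by 1.24, 1.22, 2.52 and 0.76, in the order Ms4a1, Cd79b, Blnk and Cd37. The comparisons share the Brown Norway arrays. On the authors' deposited values the saline PN14 differences from Lewis were 1.33, 1.06, 1.32 and 0.71, and all were called. Other leukocyte genes are given beside it: the mean level of 10 general leukocyte genes ran from 10.29 to 10.55 on Brown Norway PN14 saline arrays, up to 10.38 on Fisher and from 10.10 to 10.18 on Lewis ones. After ovalbumin it ran from 10.32 to 10.57 in Brown Norway, from 10.18 to 10.38 in Fisher and from 10.25 to 10.36 in Lewis lungs, and the T cell list from 7.18 to 7.65, 6.83 to 8.26 and 6.71 to 7.08 in the same order. Their part in the strain difference was not tested.

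**Figure D3:**
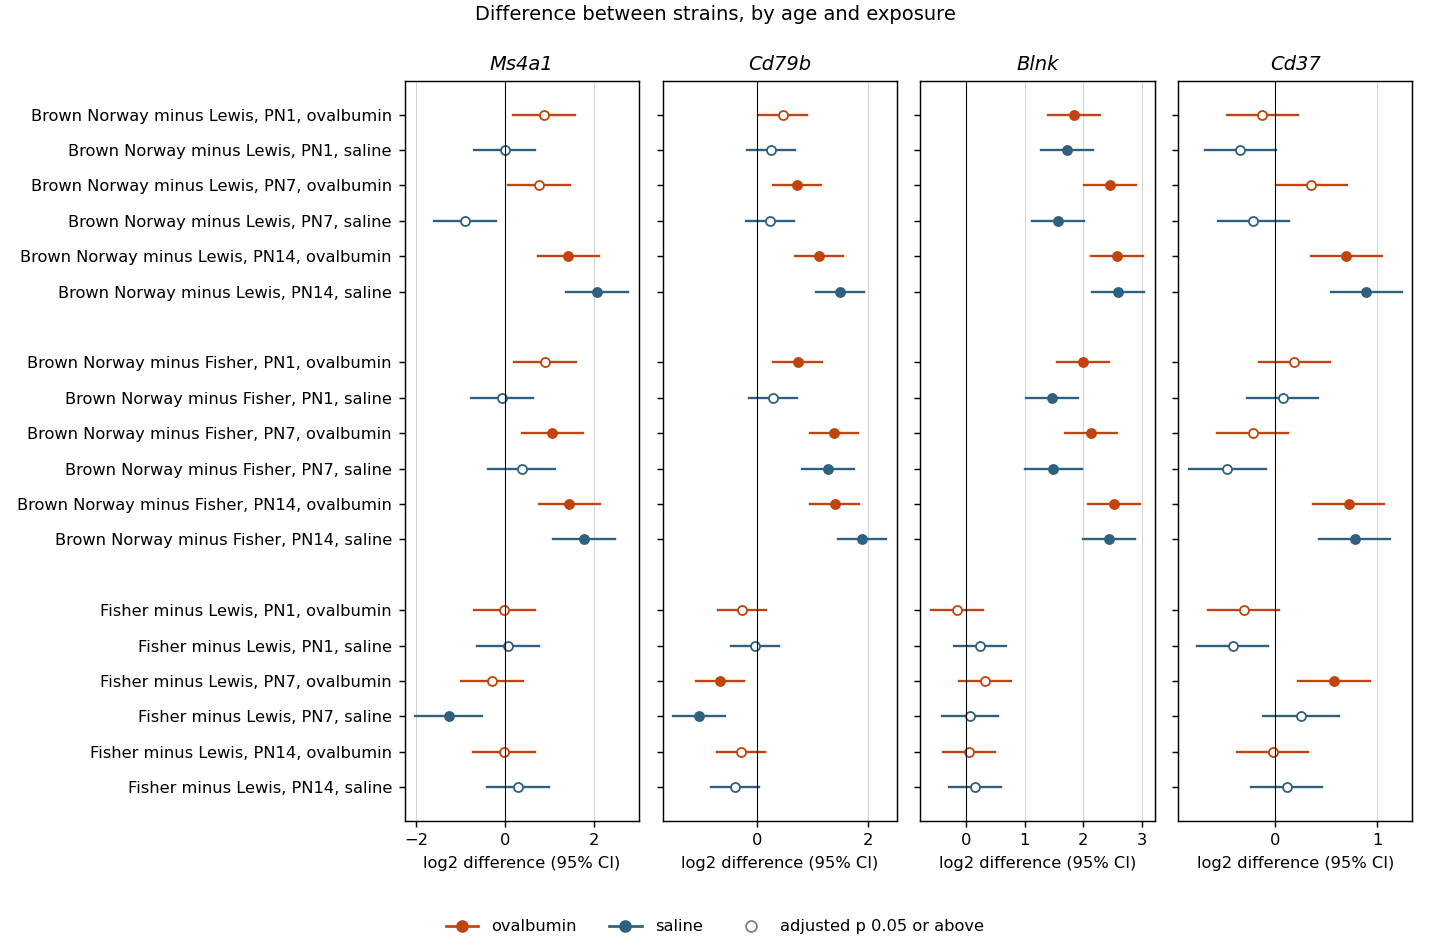
Log2 differences Brown Norway minus Lewis, Brown Norway minus Fisher and Fisher minus Lewis at PN1, PN7 and PN14, with ovalbumin above saline and 95% intervals; filled points were called. Blnk is called in both Brown Norway differences at each age, from 1.48 to 2.59, and all 4 genes are called in both at PN14, where none is called for Fisher minus Lewis.

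At the earlier ages the plot of strain differences shows Blnk apart from the other 3 genes. At PN1 after ovalbumin, Blnk was 1.85 higher in Brown Norway than in Lewis lungs (2.22 without the Lewis array with high T cell genes) and 2.00 higher than in Fisher lungs, at least 2.76-fold. After saline it was 1.72 higher than in Lewis lungs, at least 1.97-fold, and 1.48 higher than in Fisher lungs, at least 1.88-fold. Of the others, Cd79b alone was called at PN1, after ovalbumin against Fisher (0.73), and lost its call without Fisher or Brown Norway PN1 ovalbumin replicate d (adjusted p up to 0.0685). The PN1 backgrounds were 7.29% and 9.83% of probes after ovalbumin and 26.6% and 30.9% after saline, against Lewis and Fisher in that order. Within slides, the PN1 saline Blnk difference from Lewis was 1.43 and 2.01, and that from Fisher 1.15 and 1.80. At PN7 after ovalbumin, Brown Norway exceeded Lewis in Cd79b (0.72) and Blnk (2.45, at least 3.05-fold), where 38.0% of probes were called. It exceeded Fisher in Ms4a1 (1.07), Cd79b (1.40) and Blnk (2.13, at least 3.0-fold), where 28.2% were called; the Ms4a1 call was lost without Fisher or Brown Norway PN7 ovalbumin replicate d (adjusted p up to 0.131). At PN7 after saline, Blnk was at least 2.01-fold higher than in Lewis (16.6% of probes called) and at least 2.08-fold higher than in Fisher lungs, and Cd79b was 1.27 higher than in Fisher lungs (29.2%). Ms4a1 was at -0.90 against Lewis at that age after saline (adjusted p = 0.0636), and passed without Lewis PN7 saline replicate d or Brown Norway PN7 saline replicate a (adjusted p down to 0.0175).

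Averaged over ages after ovalbumin, Brown Norway exceeded Lewis in all 4 genes, by 1.03 for Ms4a1, 0.77 for Cd79b, 2.29 for Blnk and 0.31 for Cd37 (limma adjusted p = 0.0156), with 29.3% of probes called. It exceeded Fisher in Ms4a1 (1.14), Cd79b (1.17) and Blnk (2.22, at least 3.39-fold), and Cd37 was at 0.23 (adjusted p = 0.0920), with 25.1% called. After saline, Blnk was 1.96 ± 0.13 higher than in Lewis lungs (adjusted p = 4.58e-20, at least 2.68-fold) and Cd79b 0.66 ± 0.13 higher (adjusted p = 4.01e-05). Ms4a1 was at 0.39 (95% interval -0.01 to 0.79) and Cd37 at 0.11 (adjusted p = 0.474), with 23.4% of probes called. On the authors' deposited values, that Ms4a1 difference was 0.31 and passed (adjusted p = 0.0210), and the Blnk difference was 0.90. Against Fisher after saline, Ms4a1 was 0.70 higher (adjusted p = 0.00668), Cd79b 1.15 and Blnk 1.80, with Cd37 at 0.13 (adjusted p = 0.369) and 32.2% of probes called.

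Fisher and Lewis lungs differed from each other in fewer of the 4 genes. Cd79b was lower in Fisher than in Lewis lungs averaged over ages, at -0.41 after ovalbumin (limma adjusted p = 0.00961, 30.1% of probes called) and at -0.50 after saline (adjusted p = 0.00430, 15.6% called). That ovalbumin call was lost with slide as a fixed term (-0.29, adjusted p = 0.0802). At PN1 none was called (10.3% of probes after ovalbumin and 17.9% after saline), and at PN14 none was called (3.57% and 3.89%). At PN7 after ovalbumin, Cd79b was lower in Fisher (-0.67) and Cd37 higher (0.58), with 39.3% of probes called. Cd79b missed the threshold without Fisher PN7 ovalbumin replicate d (-0.46, adjusted p = 0.0978) and Cd37 without replicate c (0.43, adjusted p = 0.0606). Cd79b also missed it with slide as a fixed term (-0.51, adjusted p = 0.0956) and on the deposited values (-0.29, adjusted p = 0.0534). Cd37 missed it in a fit of only the groups compared (adjusted p = 0.0573). At PN7 after saline, Ms4a1 was lower in Fisher (-1.27, adjusted p = 0.0128, with Lewis at least 1.85-fold higher) and so was Cd79b (-1.05, adjusted p = 0.00102), with 17.0% of probes called. That Ms4a1 call was lost without Lewis PN7 saline replicate c (-1.0, adjusted p = 0.0504) or Fisher PN7 saline replicate c (-1.05, adjusted p = 0.123). Both PN7 saline calls were lost without 4 arrays doubted in earlier work on these data (adjusted p = 0.0863 for Ms4a1 and 0.0556 for Cd79b). They were also lost in a fit of only the groups compared (adjusted p = 0.119 and 0.0842).

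In the main fit the exposures differed by test in Cd79b and, near the threshold, in Cd37 at PN1 and in none of the 4 genes at PN14. Averaged over strains at PN1, Cd79b was 0.53 ± 0.13 higher after ovalbumin than after saline (limma adjusted p = 0.00312) and Cd37 0.29 ± 0.10 higher (adjusted p = 0.0470), with 10.9% of probes called, 6.01% upward. Ms4a1 was at 0.52 (95% interval 0.12 to 0.93, adjusted p = 0.0789) and Blnk at 0.29 (adjusted p = 0.132). The Cd37 call was lost when any 1 of 16 of the 24 arrays was left out, where it ran from 0.23 to 0.34 over all 24, with 0.23 (adjusted p = 0.123) without the Lewis array with high T cell and thymus genes. It was also lost on the deposited values (adjusted p = 0.0635), with offset 50 (0.0527) and without the detection filter (0.0720). With slide as a fixed term (0.0728) or random block (0.0543), and without the 4 doubted arrays (0.154), Cd37 did not pass either. Ms4a1 passed without Brown Norway PN1 ovalbumin replicate b (0.61, adjusted p = 0.0409) and in a fit of only the groups compared (adjusted p = 0.0175). With the replicate letter as a block, Ms4a1 passed (0.52, adjusted p = 0.0286) and Cd37 did not (adjusted p = 0.0533).

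By strain, the PN1 calls were all in Brown Norway lungs. Ms4a1 averaged 5.83 after ovalbumin and 4.69 after saline, a difference of 1.15 ± 0.35 (limma adjusted p = 0.00961), or at least 1.04-fold since no saline array detected it. Cd79b averaged 6.81 after ovalbumin and 6.06 after saline, a difference of 0.75 ± 0.22 (adjusted p = 0.00679). Neither gene's groups overlapped, and in that comparison 26.3% of probes were called, 13.7% upward, and 31.5% had no overlap. The Ms4a1 call was lost without Brown Norway PN1 ovalbumin replicate a (0.84, adjusted p = 0.0905). Blnk was at 0.51 (adjusted p = 0.0818) and Cd37 at 0.40 (adjusted p = 0.0811). Blnk passed without saline replicate b (0.67, adjusted p = 0.0251) or ovalbumin replicate c (0.67, adjusted p = 0.0286), and Cd37 without ovalbumin replicate c (0.54, adjusted p = 0.0244). Both also passed with the replicate letter as a block (adjusted p = 0.0475 for Blnk and 0.0477 for Cd37). Within the slide that held 2 arrays of each exposure, Brown Norway differences were 1.17, 0.55, 0.39 and 0.50 in the order Ms4a1, Cd79b, Blnk and Cd37. In Fisher and Lewis lungs none of the 4 was called, with 2.75% and 0.171% of probes called, although the Cd37 groups of Fisher (0.29) and the Cd79b groups of Lewis (0.54, adjusted p = 0.252) did not overlap, as for 8.97% and 7.46% of probes. The exposure effect was not shown to differ between strains at PN1, since no gene passed the F test of that interaction and 22.6% of probes did.

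**Figure D4:**
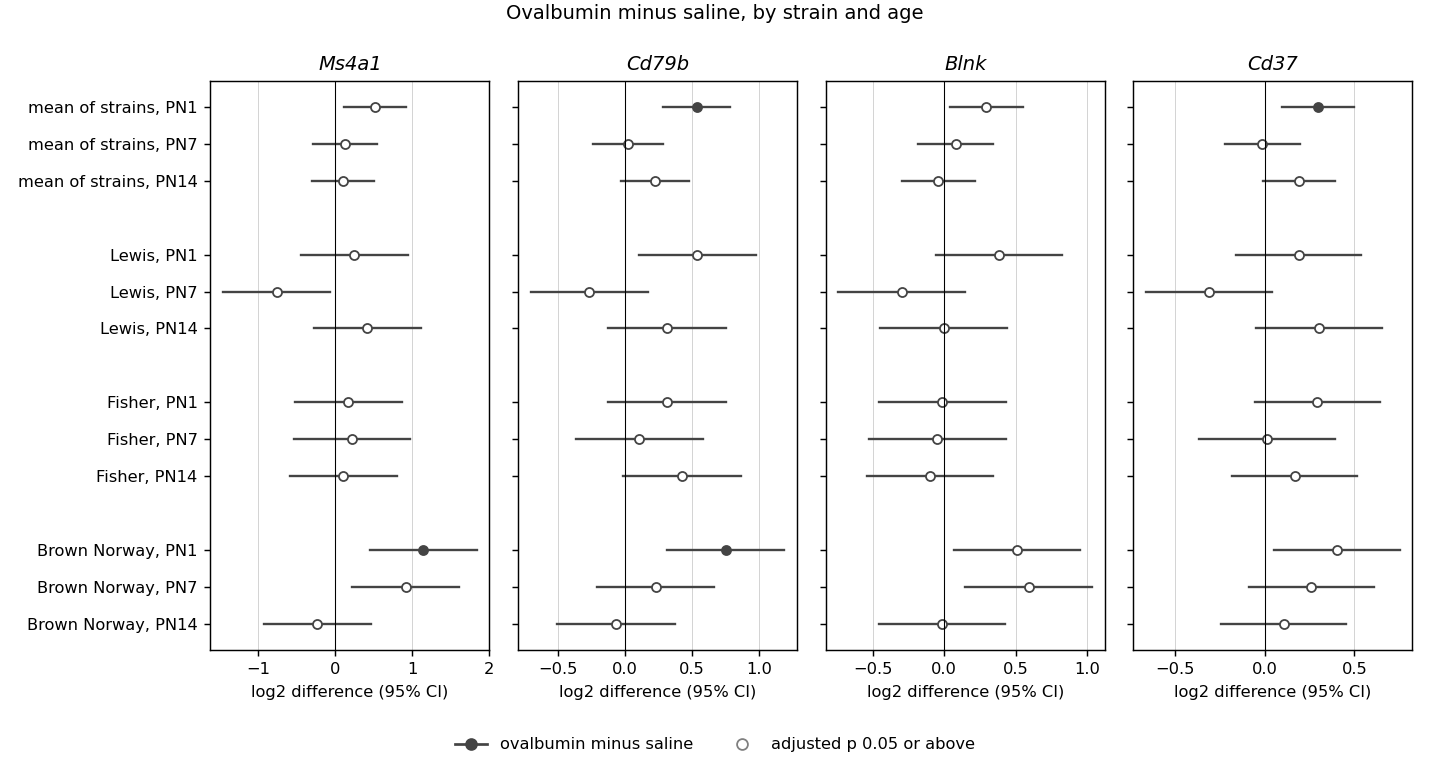
Log2 differences ovalbumin minus saline at PN1, PN7 and PN14, averaged over strains and in each strain, with 95% intervals; filled points were called. At PN1 the averaged Cd79b (0.53) and Cd37 (0.29) and the Brown Norway Ms4a1 (1.15) and Cd79b (0.75) are filled, and no point is at PN7 or PN14.

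The plot of exposure differences shows that the signs at PN7 were mixed. Averaged over strains, no gene was called at PN7, where 22.6% of probes were (Ms4a1 0.13, 95% interval -0.29 to 0.54), or in any strain, where 0.150% of probes were called in Brown Norway, 2.00% in Fisher and 35.2% in Lewis lungs. The strains' Ms4a1 effects differed at that age by limma's F test (adjusted p = 0.0239, with 25.0% of probes called). They were 0.92 in Brown Norway (adjusted p = 0.202), 0.22 in Fisher and -0.76 in Lewis lungs (adjusted p = 0.0841). That interaction was lost without Lewis PN7 saline c, Brown Norway PN7 saline d, Lewis PN7 ovalbumin a or c or Brown Norway PN7 ovalbumin d (adjusted p up to 0.0880). The same interaction of Ms4a1 was also lost on the deposited values (adjusted p = 0.05995) and in a fit of only the groups compared (0.116). Of the single effects, the Brown Norway effect passed without Brown Norway PN7 saline replicate a (1.19, adjusted p = 0.0485), and the Lewis effect passed without Lewis PN7 saline replicate d (-0.97, adjusted p = 0.0344) or Lewis PN7 ovalbumin replicate b (-1.05, adjusted p = 0.0196). Within slides, the Lewis Ms4a1 effect was -1.04 and -0.48, and the Fisher one 0.22. By the same F test at PN7, Blnk did not pass (adjusted p = 0.0676). It did on the deposited values (adjusted p = 0.0289), with offset 50 (0.0231) and without the 4 doubted arrays (0.00934). At PN14 no gene was called, as was the case for all but 0.0143% of probes. The averaged differences there were 0.10 for Ms4a1 (95% interval -0.30 to 0.50), 0.22 for Cd79b (-0.03 to 0.48), -0.04 for Blnk and 0.19 for Cd37 (-0.01 to 0.39), and no slide held both exposures at PN14.

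The age steps themselves were also compared between exposures. The PN7 minus PN1 step of Cd79b was smaller after ovalbumin than after saline averaged over strains (-0.51 ± 0.18, limma adjusted p = 0.0299, with 25.2% of probes called), and was lost in 4 of 47 fits that left out 1 array (adjusted p up to 0.0620). It was also lost on the authors' deposited values (-0.22, adjusted p = 0.108), with offset 50 (adjusted p = 0.0597), without the detection filter (0.0506), with slide as a fixed term (-0.41, adjusted p = 0.245) and without the doubted arrays (0.0572). In Lewis lungs the same difference of steps was -0.80 ± 0.31 (adjusted p = 0.0421, 29.0% called), and it was lost in 9 of 16 fits that left out 1 array (-0.94 to -0.67 over all 16). It was also lost on the deposited values (adjusted p = 0.109), with offset 50 (0.0689), without the detection filter (0.0704) and without the doubted arrays (0.120). The PN14 minus PN1 step of Ms4a1 was smaller after ovalbumin in Brown Norway lungs (-1.37 ± 0.49, adjusted p = 0.0495, 14.1% called) and was lost in 13 of 16 such fits (-1.64 to -1.06 over all 16). That call was also lost on the deposited values (adjusted p = 0.0523), with offset 50 (0.0939) and without the detection filter (0.0770). No other difference of steps was called for the 4 genes in the main fit. With slide as a fixed term, the PN14 minus PN1 difference of steps of Cd79b was called over strains (-1.25, adjusted p = 0.0311) and in Brown Norway lungs (-1.87, adjusted p = 0.00827). The F test of exposure by age within a strain called none of them (17.1% of probes in Brown Norway, 0.934% in Fisher and 25.6% in Lewis lungs), although Ms4a1 in Brown Norway and Ms4a1 and Cd37 in Lewis lungs passed when certain single arrays were left out (adjusted p down to 0.0362). With slide as a fixed term, Cd79b passed it in Brown Norway (adjusted p = 0.0198) and Lewis lungs (adjusted p = 0.0318). Under that term the PN14 ovalbumin levels rest on Fisher PN14 ovalbumin replicate d, whose Cd79b was the lowest of its group (6.68, against 7.08 to 7.65).

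Other genes of B cells were counted from lists that do not hold the 4 genes, in the saline comparison PN14 minus PN1 averaged over strains, where the median over all probes was -0.01. Of 12 tested genes of the receptor complex and its signalling, 8 rose and 1 fell by limma, with a median log2 difference of 0.35, against 17.2% of all probes up and 18% down. Plcg2, the phospholipase C gamma of B cells, rose by 0.97 ± 0.10 and Pik3ap1, an adaptor for phosphoinositide 3-kinase, by 0.73 ± 0.08. The kinases Btk (0.40 ± 0.13, adjusted p = 0.0102) and Syk (0.29 ± 0.11, adjusted p = 0.0447) also rose, and Lyn was at 0.12 (adjusted p = 0.357). Of 7 surface receptors, 4 rose and 1 fell (median 0.53). Cd40, the receptor for T cell help, rose by 0.63 ± 0.09 and Cd72, a B cell coreceptor detected on 12 arrays, by 0.71 ± 0.11, whereas Cd24, a glycoprotein of immature B cells and of epithelium, fell by 0.67 on the log2 scale. Of 8 transcription factors 1 rose (median 0.15), a share near the 17.2% of all probes, namely Spib at 0.33, which was detected on 3 arrays, and Ebf1, which specifies the B lineage, was at 0.18 (adjusted p = 0.0513). Of 4 progenitor genes 2 rose (median 0.41), Dntt by 0.56 and Cd93 by 0.27. Dntt was detected on 14 arrays and is also counted among the thymus genes, and Cd93 was detected on all 71 arrays. After ovalbumin, the same lists gave 5 of 12 receptor genes up, 4 of 7 surface receptors up and 1 down, 3 of 8 transcription factors up and 1 of 4 progenitor genes up, against 15.3% of all probes up.

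Of 5 tested immunoglobulin and plasma cell genes, 1 rose and 3 fell after saline (median -0.22): Prdm1, a factor of plasma cell differentiation, rose by 0.57, and Derl3, of the secretory pathway, was at -0.86. None of the listed immunoglobulin chain genes was paired with a probe, so antibody transcripts were not analysed here, nor was Cd79a. Cd22 and Pax5 were on the array but did not pass the detection filter. Of 13 genes of lymphoid tissue chemokines and stroma, 5 rose and 2 fell (median 0.13), in the same comparison and against the same shares of all probes. Ccl19, which draws lymphocytes into lymphoid tissue, rose by 3.44 ± 0.32, and Cxcl13, the B cell follicle chemokine, was lower at PN14 (-0.31, adjusted p = 0.00897). In Brown Norway against Lewis lungs averaged over ages after saline, 2 of the 12 receptor genes were higher and 2 lower, with a median of -0.02 and 23.4% of all probes called. Syk was lower in Brown Norway (-0.71 ± 0.11, adjusted p = 1.64e-06), as was Cxcl13 (-0.68, adjusted p = 7.77e-08), and Lyn (0.30, adjusted p = 0.0163) and Cd72 (1.09 ± 0.11, adjusted p = 3.53e-12) were higher. Mean list levels at PN14 are given in the order Brown Norway, Lewis and Fisher. After saline, surface receptors ran from 8.18 to 8.57, 7.76 to 8.12 and 7.725 to 7.91. The receptor complex list ran from 6.89 to 7.19, 6.75 to 6.86 and 6.66 to 7.13. After ovalbumin, surface receptors ran from 8.39 to 8.51, 7.84 to 8.07 and 7.83 to 7.92. The receptor complex list then overlapped, as did transcription factors under both exposures.

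Genes of other cells moved beside the 4 genes with age. In the saline PN14 minus PN1 comparison, 7 of 11 T cell genes rose (median 0.80, among them Cd3g by 1.91 and Cd247 by 1.56), 7 of 10 general leukocyte genes rose (median 0.44, Ptprc by 0.99) and 4 of 8 MHC class II genes rose and 1 fell (median 0.38, RT1-Ba by 1.46). All 4 neutrophil genes fell (median -0.99). The T cell list's mean level ran from 6.98 to 7.09 on Brown Norway PN14 saline arrays and from 5.99 to 6.42 at PN1, from 6.67 to 7.06 and 6.11 to 6.41 in Fisher, and from 6.53 to 6.86 and 5.42 to 5.49 in Lewis lungs. With the PN1 exposure difference averaged over strains, 5 of 8 MHC class II genes, 4 of 10 leukocyte genes and 2 of 11 T cell genes rose. Of all probes, 6.01% were called upward there. That average includes the Lewis PN1 ovalbumin array with high T cell and thymus genes, and list counts without it are not given. In Brown Norway lungs at PN1, 5 of 8 MHC class II genes rose (list mean level 9.53 to 9.77 after ovalbumin and 8.63 to 9.42 after saline), 2 of 10 leukocyte genes rose, 0 of 11 T cell genes were called and 2 of 4 neutrophil genes fell. For that strain and age, 26.3% of all probes were called, 13.7% upward. The part of these cells in the results was not tested.

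Over the 18 group means, the 4 genes were unequally alike, as a description over groups that share arrays' slides and normalisation. Pearson's r was 0.941 for Ms4a1 and Cd79b, 0.855 for Ms4a1 and Cd37, 0.788 for Cd79b and Cd37, 0.701 for Cd79b and Blnk, 0.586 for Ms4a1 and Blnk and 0.463 for Blnk and Cd37. Of 9639 other genes, those most like Ms4a1 were Myo1g (0.943), Cd79b, Xpnpep2 (0.920), Plac8 (0.917) and Irf1 (0.908). Those most like Cd79b were Ms4a1, Cd69 (0.914), P2ry10 (0.910), Stap1 (0.896) and Tnfsf10 (0.895). Those most like Cd37 were Coro1a (0.946), Plcg2 (0.922), C1h16orf54 (0.908), Adgre5 (0.900) and Sit1 (0.899). Blnk was most like RT1-A2, RT1-CE10 (0.969), Cmahp (0.962), Spmap2l (0.959) and Cavin2 (0.951), of which RT1-A2 and RT1-CE10 are class I genes of the rat's histocompatibility complex.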

How the data were processed

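Biotinylated cRNA from whole rat lung was hybridised to bead arrays, per the labels. The authors deposited mean bead signal intensities per probe and array, with no background correction or normalisation per the file headers. The detection p-values beside them were deposited by the authors and compare each probe with the negative control beads of its array. The authors' deposited log2 values equal the raw signal on the log2 scale after quantile normalisation to within 5e-05, and the submitters' processing notes name lumi. These values served as an alternative.

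Intensities were background-corrected on the negative controls, quantile-normalised and put on the log2 scale with neqc of limma 3.58.1 (offset 16) in R 4.3.3. Of 22523 probes, 14019 with detection p under 0.01 on at least 3 arrays were kept. A linear model fitted 1 mean per group, with 18 groups and 53 residual degrees of freedom, and eBayes with an intensity trend moderated the variances. P-values were adjusted by Benjamini-Hochberg over all tested probes, and calls used an adjusted p under 0.05. Of the tested probes, 9848 carry 1 gene symbol in the platform annotation, which names 9642 genes. A gene undetected on every array of a group has only a bound there, set from each array's lowest detected signal or the probe's own if higher. The pipeline was tested on simulated data. The number of arrays limits precision.

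The 4 genes and the lists beside them were chosen with earlier results of these data known. From each list, at most the 2 called genes with the lowest adjusted p in the saline PN14 minus PN1 mean were named, besides Cd79a, Cd22, Cd72, Pax5, Ebf1, Syk, Btk, Lyn and Cxcl13. An item of the naming rule is not reported here. Alternatives covered normalisation, offset, filter, slide, replicate letter and left-out arrays. The letters a to d were not taken to pair arrays, since deviations of same-lettered arrays correlated above 0.1 in every pair in Fisher PN7 alone.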

Additional observations from a re-analysis of the deposited data

Results flagged for a closer look

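Of 68 sets of 4 arrays tested for a lone value by Dixon's ratio, 3 held one, against about 1 in 20 that chance gives. Ms4a1 on Fisher PN1 saline replicate c was at 5.15, above the 4.59 to 4.67 of its group, and was not detected there. Blnk on Lewis PN1 ovalbumin replicate a was at 6.32, the array whose T cell and thymus genes stood apart. Cd37 on Lewis PN14 saline replicate c was at 8.41, above the 8.05 to 8.09 of its group.

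The age course differed between strains after ovalbumin for Cd37 (limma adjusted p = 0.00152). After saline it differed for Ms4a1 (adjusted p = 3.12e-05), Cd79b (adjusted p = 7.62e-05), Blnk (adjusted p = 0.0179) and Cd37 (adjusted p = 5.12e-05). The Ms4a1 response to ovalbumin at PN7 differed between strains by F test in the main fit (adjusted p = 0.0239). That call was lost on the deposited values (adjusted p = 0.05995), in a fit of only the groups compared (0.116) and without certain single arrays. Between exposures, the PN7 minus PN1 step of Cd79b differed in the main fit by -0.51 over strains and by -0.80 in Lewis lungs, and the PN14 minus PN1 step of Ms4a1 by -1.37 in Brown Norway lungs. Each of these calls on steps was lost on the deposited values (limma adjusted p = 0.108, 0.109 and 0.0523 in that order).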

How the results depend on the processing

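Averaged over strains at PN1, 2 of the 4 genes differed between exposures, and 1 did on the authors' deposited values, without background correction, with offset 50, without the detection filter, with slide as a random block or as a fixed term, and without the 4 arrays doubted earlier, whereas 3 did in a fit of only the groups compared. Leaving out 1 array at a time gave 1 to 2. With slide as a fixed term, the calls for PN14 minus PN7 went to 1 after ovalbumin (3 or 4 otherwise) and 2 after saline (4 otherwise), those for PN14 minus PN1 after ovalbumin to 1 (4 otherwise), and those for Fisher minus Lewis over ages after ovalbumin to 0 (1 otherwise). The PN14 ovalbumin levels under this term rest on Fisher PN14 ovalbumin replicate d, the only PN14 ovalbumin array outside slide 6. Ms4a1 (6.17) and Cd79b (6.68) on that array were the lowest of its group. The cause of the changed counts was not tested. Among values of single genes, slide as a fixed term lost 30 calls and gained 4, slide as a random block lost 3 and gained 1, the deposited values lost 9 and gained 5, offset 50 lost 5 and gained 4, and fits of only the groups compared lost 7 and gained 7. No called value changed direction under any alternative run. The 4 doubted arrays were 1 of Lewis PN1 ovalbumin (a), 1 of Fisher PN1 saline (a), 1 of Lewis PN7 saline (d) and 1 of Fisher PN7 saline (c), and leaving them out lost 6 calls and gained 8.

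Over all probes, slide as a fixed term gave 3662 calls against 6585 for saline PN7 minus PN1, 3502 against 6314 for PN14 minus PN7 and 2306 against 4934 for PN14 minus PN1. For the exposure it gave 790 against 1529 at PN1, 1955 against 3175 at PN7 and 1572 against 2 at PN14. The PN14 count under the slide term rests on Fisher PN14 ovalbumin replicate d. For the difference of steps it gave 1711 against 3539 for PN7 minus PN1 and 1993 against 210 for PN14 minus PN1, where no filter on detection gave 96. The replicate block of strain, day and letter kept 44 of 48 exposure values, and Ms4a1 at PN1 over strains was 0.52 (adjusted p = 0.0286) with that block. For age and strain comparisons the block lies within the groups and could not be fitted. Signals near background limit Ms4a1 at PN1 and Blnk in Fisher and Lewis lungs, where folds against an undetected group are bounds and averaged Blnk differences rest partly on background.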
